A study of Mus musculus with 18 samples.

Results

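Macrophage marker genes were followed through cultures of mouse fibroblasts undergoing reprogramming to induced pluripotent stem cells. The set is a fixed list of 30 genes known from macrophages, chosen with earlier results of these data known. Counts over the list, given beside the share of all genes, are therefore descriptions and not independent tests of the set. A gene counts as measured where a probe set carries its symbol alone. All 30 were measured, of 22180 genes in all, each by a single probe set. Values are log2 expression levels, so a difference of 1 is a doubling.

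The fibroblasts were reprogrammable mouse embryonic fibroblasts (Rep-MEFs), which express OKSM, the factors Oct4, Klf4, Sox2 and Myc, once doxycycline (dox) is given. All samples carry the strain label Black6-129X1/SvJ. Bulk cultures were sampled after 2, 4, 6, 8, 10 and 12 days of OKSM, in 1 arm with OKSM alone and in the other with OKSM plus ascorbic acid and a GSK3 inhibitor, together named AGi. The remaining 6 arrays were Rep-MEFs without dox, granulocyte-macrophage progenitors (GMPs), wild-type embryonic stem cells (ESCs), fibroblast-derived iPSCs made with 96 hours of OKSM and AGi, GMP-derived iPSCs made with 48 hours of both, and Thy1-positive cells, labelled refractory, sorted from OKSM cultures on day 3. Each condition is 1 array, nothing in the labels says that the days were separate cultures, so a p-value reflects only how the arrays of different days scatter, which may be technical. In bulk RNA, fewer macrophages in a culture and less of a macrophage transcript per cell cannot be told apart.

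Macrophages are phagocytes that live in nearly every tissue of the embryo and the adult, and they depend on the receptor Csf1r and its ligands Csf1 and Il34. They engulf particles through scavenger, lectin and Fc receptors, pass signals through the small adaptors Tyrobp and Fcer1g, digest the cargo in lysosomes and secrete the complement component C1q. In blood formation, GMPs give rise to monocytes and neutrophils. The transcription factor PU.1, encoded by Spi1, binds DNA at purine-rich sites around the letters GAGGAA and is needed for the macrophage lineage.

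Promoter sequences are shown for some of the members that moved together (C1qb, Cd53, Mrc1, Wfdc17, Fcgr3 and Itgam) and for Laptm5, which did not move with them. Each run holds the 100 bases before the annotated start of the gene, from RefSeq on GRCm38.p6, written 5′ to 3′ on the strand of the gene. The PU.1 core GAGGAA, or its reverse complement TTCCTC, is in capitals. Every run shown holds it, so these runs do not stand for all members that moved. Fcer1g, Lyz2, C1qc, Mpeg1 and Ctss also moved with the set and have no core in the same 100 bases. In the 250 bases before the start, C1qc and Ctss do have it, and Fcer1g, Lyz2 and Mpeg1 do not.
C1qb (chr4:136886201-136886300, minus strand): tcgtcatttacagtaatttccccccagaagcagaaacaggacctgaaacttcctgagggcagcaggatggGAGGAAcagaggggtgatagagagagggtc
Cd53 (chr3:106790150-106790249, minus strand): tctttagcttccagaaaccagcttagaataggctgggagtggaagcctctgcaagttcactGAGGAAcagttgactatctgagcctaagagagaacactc
Mrc1 (chr2:14229314-14229413, plus strand): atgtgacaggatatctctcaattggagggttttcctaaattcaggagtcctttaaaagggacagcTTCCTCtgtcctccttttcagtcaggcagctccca
Wfdc17 (chr11:83703956-83704055, plus strand): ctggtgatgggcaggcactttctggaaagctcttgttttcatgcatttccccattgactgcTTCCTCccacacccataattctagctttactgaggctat
Fcgr3 (chr1:171059395-171059494, minus strand): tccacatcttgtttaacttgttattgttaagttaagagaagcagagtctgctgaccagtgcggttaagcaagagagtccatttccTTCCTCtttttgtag
Itgam (chr7:128062540-128062639, plus strand): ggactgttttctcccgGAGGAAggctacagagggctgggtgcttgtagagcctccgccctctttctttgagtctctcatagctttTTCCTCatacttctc
Laptm5 (chr4:130913216-130913315, plus strand): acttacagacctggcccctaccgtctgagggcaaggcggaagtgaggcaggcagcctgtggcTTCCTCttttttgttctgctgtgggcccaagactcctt

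The promoter table held 21 of the 30 members. Over the 250 bases before the start and on both strands, the core GAGGAA was present in 14 of these 21 promoters (66.7%), against 23.1% of all 27025 promoters of the same length. The C/EBP motif TTGCNNAA was in 2 of the 21 (9.52%, against 9.53% of all), the AP-1 motif TGANTCA in 3 (14.3%, against 6.87%) and the TATA box TATAAA in 2 (9.52%, against 12.9%). Members with the core did not all behave alike. Of the 14 with it, 10 were called lower with AGi on days 8 to 12, and of the 7 without it, 4 were. Laptm5, Marco, Aif1 and Cd68 have the core and were not among those called. These matches are letters in a window and were not tested as binding sites.

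The series as a whole was even between arrays, with array medians between 6.317 and 6.461. The label of the GMPs fitted its defining markers, and that of the sorted cells was checked only weakly. Mpo and Elane, granule enzymes of the neutrophil lineage, had log2 levels of 12.93 and 13.60 in GMPs and of no more than 6.37 and 6.73 in MEFs and the 12 cultures. Thy1 had a log2 level of 11.24 in the sorted Thy1-positive cells, 10.83 in OKSM cultures on day 2 and 10.36 on day 4. It was higher still in MEFs (11.63) and in unsorted OKSM cultures on days 8 and 10 (11.43 and 11.53). The spiked-in hybridisation controls, RNA added at the array step, were not level: each of their 18 probe sets was higher with AGi than without it, by 0.056 to 0.263 (log2), and on day 4 than on day 2, by 0.048 to 0.433. Both differences run opposite to the falls of the members and the same way as the rises of Gpnmb and Cd68 with AGi. The test of AGi over 6 days called 7 of the 18 control probe sets higher, and the other tests called none. Each test was therefore also run against a difference as large as that of the most deviating control probe set (limma's treat), named below as the largest control difference.

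The members were first set across the reference arrays. The mean over the 30 members, each centred on its own mean over the 18 arrays, was 2.01 in GMPs, 0.26 in MEFs, −0.49 in ESCs, −0.35 in Fibroblast-iPSC and −0.69 in GMP-iPSC (log2). In MEFs without dox, 10 of the 30 members lay at least 1 log2 above the mean of the 3 pluripotent arrays, against 8.12% of all genes. Their median difference was 0.81, against 0.01 over all genes. Lyz2 (a log2 difference of 2.84), the lysozyme of myeloid cells, and Lilrb4a (2.81), an inhibitory receptor, led. Fcer1g (1.88), Msr1 (1.67), C1qb (1.66), Mpeg1 (1.61), Csf1r (1.51), Cd14 (1.5), Tyrobp (1.24) and Ctss (1.18) were the others. Laptm5 (−1.73) and Cd68 (−1.33) were lower in MEFs than in the pluripotent cells by more than 1 log2. At a threshold of 0.5 log2 the count higher in MEFs was 22, against 15.4% of all genes. These are single arrays with no replicate check.

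GMPs had the highest level of most members. In the GMP array 21 of 30 members lay at least 1 log2 above MEFs, against 7.42% of all genes, with a median difference of 1.87 (0.05 over all genes). Fcgr2b (a log2 difference of 5.15), Cd53 (4.63), Wfdc17 (4.58) and Itgam (4.17) differed most. The level in GMPs exceeded that of every culture for 20 members, against 25.4% of all genes. For the other 10 at least 1 culture stood above GMPs: C1qa, C1qb, C1qc, Mrc1, Cx3cr1, Trem2, Gpnmb, Cd68, Cd83 and Aif1. Among these are the complement C1q chains and the mannose receptor Mrc1, which belong to differentiated macrophages. C1qb had a log2 level of 7.66 in GMPs, 7.58 in ESCs and 10.42 in OKSM cultures on day 12.

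**Figure D1:**
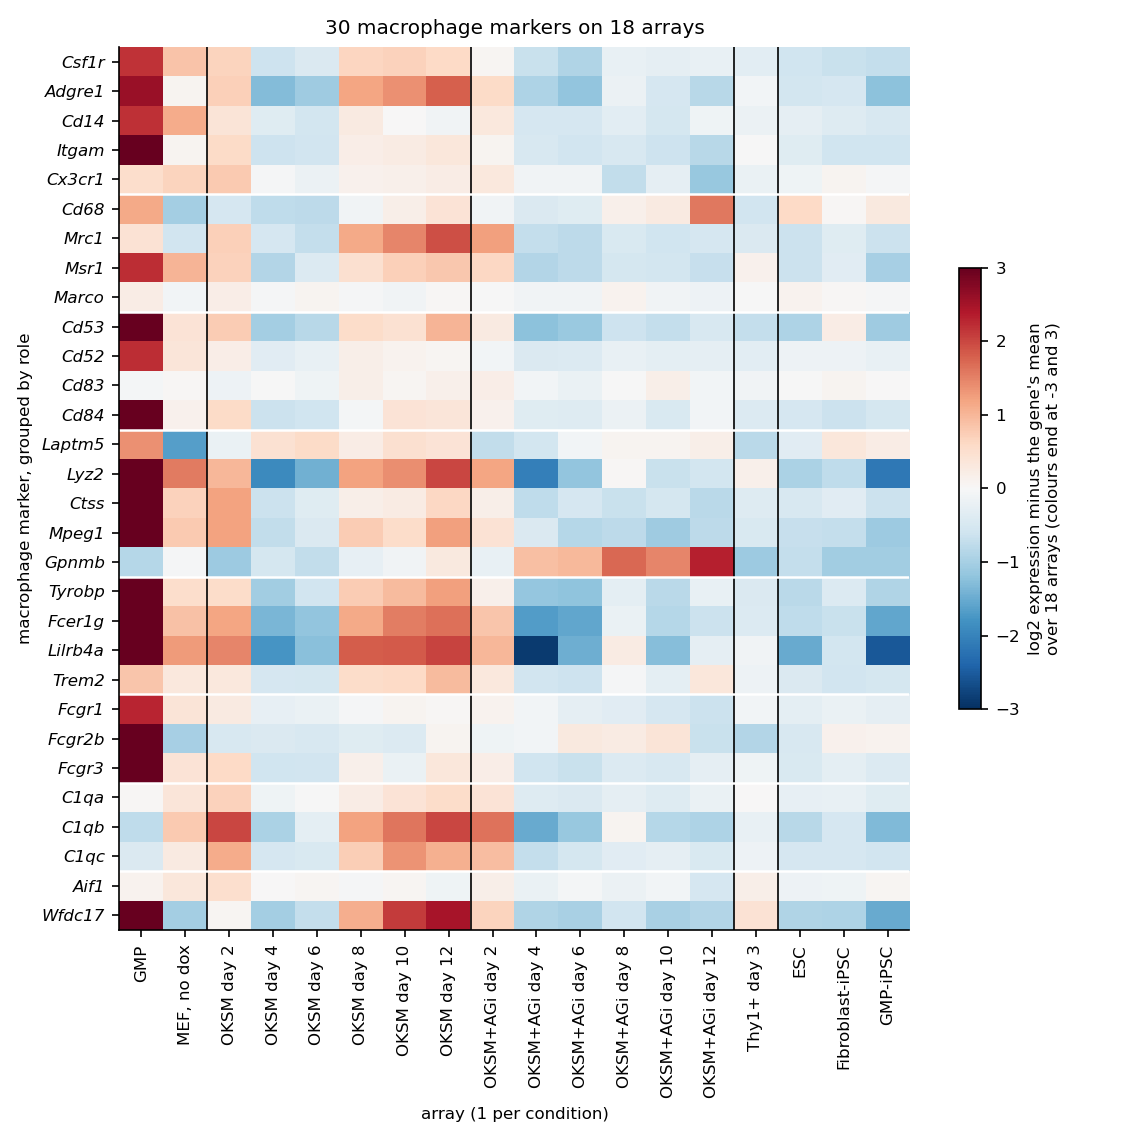
Log2 expression of the 30 macrophage markers (vertical axis, grouped by role) on the 18 arrays (horizontal axis), each minus the mean of the gene over the 18 arrays. Red is above that mean and blue below it; most markers are high in GMPs, on day 2 of both arms and on days 8 to 12 of OKSM alone, and low on days 4 and 6.

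The first change in the time course was the fall from day 2 to day 4, in which both arms took part. Of 30 members, 16 were called lower on day 4, against 0.987% of all genes, and none higher (limma, adjusted p under 0.05 over 22180 genes, the rule for every call here). The median member differed by −0.94, against −0.02 over all genes. In both arms, 11 members were lower on day 4 than on day 2 by at least 1 log2, which 0.379% of all genes were. Lilrb4a differed by −3.55 ± 0.21 (SE, n = 2 arms, adjusted p = 0.0083), Lyz2 by −3.07 ± 0.12 (adjusted p = 0.00294), C1qb by −3.05 ± 0.13 (adjusted p = 0.00338) and Fcer1g by −2.53 ± 0.09 (adjusted p = 0.00231). The other 12 called were Csf1r, Adgre1, Cd14, Cd53, Tyrobp, Fcgr3, C1qa, C1qc, Mrc1, Msr1, Trem2 and Wfdc17, with differences from −1.75 (Adgre1) to −0.78 (Cd14). This fit had 2 residual degrees of freedom, from the arrays of days 2, 4 and 6. With the spread estimated over all 12 culture arrays no member was called (limma, 21 at an unadjusted p under 0.05), and against the largest control difference 8 were.

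The second change was a rise after day 6 in OKSM cultures. Over days 8, 10 and 12, 27 of 30 members stood above both day 4 and day 6 in every OKSM culture, against 21.3% of all genes. Laptm5, Marco and Aif1 were the exceptions. From day 6 to day 8 alone, 13 members were higher by at least 1 log2 in OKSM cultures (1.9% of all genes were) and 5 in cultures with AGi (0.947% of all genes). The steps in OKSM cultures were 3.07 for Lilrb4a, 2.65 for Lyz2, 2.33 for Fcer1g, 2.27 for Adgre1 and 1.86 for Mrc1.

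The test of days 8 to 12 against days 2 to 6, which include the high day 2, called 2 members higher in OKSM cultures, against 4.33% of all genes. They were Wfdc17 (a log2 difference of 2.44 ± 0.46, SE, n = 3 late and 3 early days, adjusted p = 0.00991) and Adgre1 (2.01 ± 0.53, adjusted p = 0.0451). With AGi the same test called Gpnmb alone (1.29 ± 0.32, adjusted p = 0.0368), against 4.14% of all genes. Against days 4 and 6 only, 20 members were called higher in OKSM cultures (5.26% of all genes) and 2 with AGi, Fcer1g and Csf1r (3.1% of all genes). Single days set the first of these counts in OKSM cultures: leaving out day 2 gave 20, leaving out day 4 or day 10 gave 0 (7 at an unadjusted p under 0.05 each, limma), and leaving out day 6 or day 8 gave 1. With AGi, leaving out day 2 or day 6 gave 2, and leaving out day 4, day 10 or day 12 gave 0 (2, 3 and 3 at an unadjusted p under 0.05, limma).

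The third comparison asked how AGi changed the members. On days 8 to 12, 22 of 30 members were called lower with AGi, against 13.4% of all genes, and Gpnmb was called higher, where 13.2% of all genes were. The median member differed by −0.88, against 0.01 over all genes. On each of days 8, 10 and 12, 25 members were lower with AGi, a pattern that 25.2% of all genes had. The lowest differences belonged to Wfdc17 (−2.69 ± 0.30, SE, n = 3 days, adjusted p = 0.000981), Lilrb4a (−2.33 ± 0.27, adjusted p = 0.00111), C1qb (−2.16 ± 0.29, adjusted p = 0.00192), Mrc1 (−2.04 ± 0.18, adjusted p = 0.000429) and Fcer1g (−2.0 ± 0.19, adjusted p = 0.000534). The count was 20 to 22 with any single day left out, and 18 passed against the largest control difference.

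On days 2 to 6 the arms were closer. One member was called lower with AGi, Laptm5 (−0.74 ± 0.11, adjusted p = 0.012, 4.27% of all genes called lower), and 1 higher, Gpnmb (1.34 ± 0.16, adjusted p = 0.00784, 3.04% of all genes called higher). On each of days 2, 4 and 6, 15 members were lower with AGi (24.4% of all genes). The median member differed by −0.29 on day 2, −0.07 on day 4, −0.11 on day 6, −0.76 on day 8, −0.86 on day 10 and −0.99 on day 12. Without day 4 or without day 6 neither Laptm5 (adjusted p = 0.0942 and 0.0867) nor Gpnmb (adjusted p = 0.0752 and 0.0681) passed on days 2 to 6.

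The difference between the late and the early effect of AGi was itself tested. It was called lower for 8 members, against 0.852% of all genes: Mrc1, C1qc, Cd53, Msr1, Wfdc17, Adgre1, Fcer1g and Lyz2. The median member differed by −0.62 (0.01 over all genes). This count depended on single days. Leaving out day 2, day 4 or day 10 gave 0 (20, 16 and 18 members at an unadjusted p under 0.05, limma), and leaving out day 6 gave 2.

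Averaged over the 6 days, 15 members were called lower with AGi (11.9% of all genes) and 2 higher, Gpnmb and Cd68 (11.8% of all genes), with a median of −0.51 (0.00 over all genes). The same test called 7 of the 18 control probe sets higher. Of the 30 members, 14 were lower with AGi on 6 of 6 days, against 13.0% of all genes. The count of 15 became 4 when day 8 was left out, 6 for day 10 and 8 for day 12, and none was called lower against the largest control difference (12 at an unadjusted p under 0.05, limma), where Gpnmb was still called higher (adjusted p = 0.00279).

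**Figure D2:**
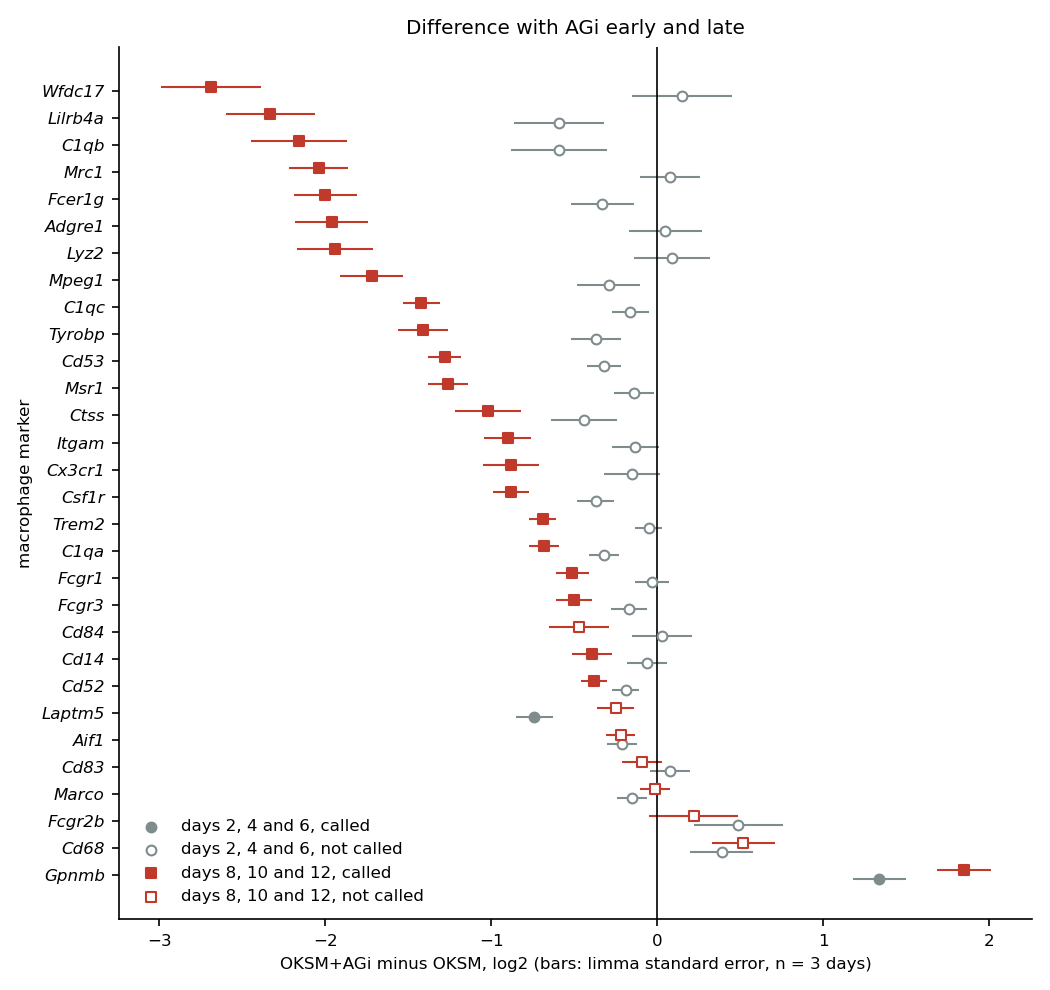
Difference in log2 expression between OKSM cultures with and without AGi (horizontal axis) for each member (vertical axis), on days 2 to 6 (grey circles) and on days 8 to 12 (red squares), with limma standard errors over 3 days; filled symbols are called. The late differences run from −2.69 for Wfdc17 to 1.85 for Gpnmb, and the early ones from −0.74 for Laptm5 to 1.34 for Gpnmb.

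The members are described next by role, beginning with receptors at the cell surface. Csf1r, the receptor for Csf1 and Il34 and the growth factor receptor of the lineage, had log2 levels of 7.65, 6.35, 6.56, 7.62, 7.67 and 7.57 on days 2, 4, 6, 8, 10 and 12 of OKSM. With AGi its levels on the same days were 7.04, 6.31, 6.09, 6.75, 6.72 and 6.75. In OKSM cultures the late levels returned to that of day 2 and lay just under the MEF level of 7.83, while every late culture with AGi lay below every late culture without it. The late log2 difference was −0.88 ± 0.11 (SE, n = 3 days, adjusted p = 0.00161). From day 2 to day 4 Csf1r differed by −1.02 ± 0.15 (n = 2 arms, adjusted p = 0.0443), a call lost without day 6 in the fit (adjusted p = 0.0763).

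Adgre1, an adhesion receptor by which mouse macrophages are commonly sorted, had log2 levels of 7.14, 5.14, 5.37, 7.63, 7.81 and 8.23 in OKSM cultures over the 6 days. With AGi they were 7.02, 5.52, 5.25, 6.27, 5.94 and 5.60. The arms were close on day 2, and on day 12 the log2 difference with AGi was −2.63, where the level with AGi was within that of the pluripotent cells (5.21 to 5.92). Late with AGi, the log2 difference was −1.96 ± 0.22 (n = 3 days, adjusted p = 0.000945). In MEFs without dox the level was 6.51, so the late OKSM cultures stood above their starting cells.

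Itgam, the integrin chain CD11b, and Cx3cr1, the fractalkine receptor, followed with smaller changes. Itgam had log2 levels from 7.22 to 7.36 in late OKSM cultures and from 6.20 to 6.54 with AGi, a difference of −0.90 ± 0.14 (n = 3 days, adjusted p = 0.00324). Its level in GMPs was 11.28, far above that of any culture. Cx3cr1 ranged from 7.5 to 7.59 in the late OKSM cultures and from 6.23 to 7.11 with AGi (−0.88 ± 0.17, adjusted p = 0.00813). All 3 late levels with AGi lay below that of every pluripotent array, of which 7.23 was the lowest. Cd14, the co-receptor for bacterial lipopolysaccharide, had late log2 levels from 5.72 to 6.11 in OKSM cultures and from 5.30 to 5.71 with AGi. Its late difference of −0.39 ± 0.12 (adjusted p = 0.0481) did not pass against the largest control difference (adjusted p = 0.765), after quantile normalization (adjusted p = 0.0635) or without any one of days 2 to 10.

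The signalling adaptors Fcer1g and Tyrobp were both called lower on day 4 and late with AGi. Fcer1g, the gamma chain shared by Fc receptors, had log2 levels of 9.40, 6.84, 7.03, 9.35, 9.75 and 9.87 in OKSM cultures. With AGi they were 9.06, 6.55, 6.66, 8.03, 7.36 and 7.57. On days 4 and 6 both arms lay within or below the pluripotent range of 6.65 to 7.55, on day 2 both were near MEFs (9.10), and the arms did not overlap on days 8 to 12. Tyrobp, the adaptor DAP12, had log2 levels of 8.34, 6.74, 7.21, 8.55, 8.74 and 9.02 in OKSM cultures and 7.95, 6.63, 6.59, 7.51, 6.98 and 7.58 with AGi. Its late difference was −1.41 ± 0.15 (n = 3 days, adjusted p = 0.000752), and the late OKSM levels were above the MEF level of 8.33.

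Trem2, a lipid-sensing receptor that signals through Tyrobp, had log2 levels of 8.05, 8.09 and 8.45 on days 8, 10 and 12 of OKSM and of 7.46, 7.22 and 7.85 with AGi. Its highest late level with AGi lay below its lowest without it, and the difference was −0.69 ± 0.08 (n = 3 days, adjusted p = 0.00134). Lilrb4a, an inhibitory receptor of myeloid cells, showed the widest range of the set over the cultures. Its log2 levels were 9.62, 6.39, 6.91, 9.98, 10.00 and 10.19 in OKSM cultures and 9.16, 5.29, 6.69, 8.40, 6.88 and 7.89 with AGi. The late levels with AGi were scattered but all below those without it. Lilrb4a has a near-identical neighbour gene, so its probe set may read both.

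Among the Fc receptors, which bind antibody, the 3 members differed. Fcgr3, an activating low-affinity receptor, had log2 levels of 7.46 on day 2, 6.26 on day 4 and 7.01, 6.65 and 7.20 on days 8, 10 and 12 of OKSM, and late levels of 6.43, 6.36 and 6.57 with AGi. Its late difference was −0.50 ± 0.11 (n = 3 days, adjusted p = 0.0117), lost without day 8 (adjusted p = 0.0604). Fcgr1, the high-affinity receptor, had late levels from 5.57 to 5.69 in OKSM cultures and from 4.97 to 5.27 with AGi, with a difference of −0.51 ± 0.10 (adjusted p = 0.00832; 0.0522 without day 10). Neither passed against the largest control difference (adjusted p = 0.225 and 0.166).

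Fcgr2b, the inhibitory Fc receptor that B cells also carry, did not move with them. Its log2 levels lay between 7.25 and 7.80 in the 6 OKSM cultures and between 7.05 and 8.12 with AGi, and no difference was called (0.22 ± 0.27 late, adjusted p = 0.629). In GMPs it reached 11.89, so the same probe set read high in another cell type. Fcgr2b, Fcgr3 and Fcer1g lie on chromosome 1, and Fcgr2b and Fcgr3 are similar in sequence, so how far their probe sets share signal is uncertain.

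C1qa, C1qb and C1qc encode the 3 chains of complement C1q, lie on chromosome 4 and moved together. C1qb had log2 levels of 10.41, 7.46, 8.11, 9.61, 10.02 and 10.42 in OKSM cultures and 10.05, 6.91, 7.27, 8.49, 7.57 and 7.49 with AGi. On days 10 and 12 the cultures with AGi were at 7.57 and 7.49, within the pluripotent range of 7.10 to 7.91, and those without it at more than 10. C1qc had levels of 7.56, 5.94, 5.99, 7.20, 7.81 and 7.53 without AGi and 7.37, 5.73, 5.93, 6.12, 6.18 and 5.99 with it. Its late log2 difference was −1.42 ± 0.11 (n = 3 days, adjusted p = 0.000346) and that of C1qa −0.68 ± 0.09 (adjusted p = 0.00179). In MEFs the log2 levels were 9.20 for C1qb, 6.72 for C1qc and 7.61 for C1qa, below those of OKSM cultures on day 2.

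The scavenger and lectin receptors split into movers and others. Mrc1, the mannose receptor, had log2 levels of 7.55, 6.34, 6.12, 7.98, 8.31 and 8.77 in OKSM cultures, and 8.07, 6.11, 6.06, 6.37, 6.23 and 6.34 with AGi. With AGi its late levels were those of the pluripotent arrays (6.20 to 6.47), although on day 2 the culture with AGi had the higher level. MEFs without dox read 6.25, also at the pluripotent level, while the lowest late OKSM level was 7.98. Msr1, a scavenger receptor, had late log2 levels of 6.28, 6.52 and 6.61 without AGi and 5.27, 5.26 and 5.11 with it, a difference of −1.26 ± 0.12 (n = 3 days, adjusted p = 0.000518).

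Marco, a related scavenger receptor, stayed between 6.34 and 6.69 on all 12 cultures and read 6.71 in GMPs and 6.47 to 6.59 in the pluripotent arrays, so its arrays hardly differed. Cd68, a lysosomal glycoprotein often used as a macrophage stain, behaved differently again. Its log2 levels went from 9.39 on day 6 to 10.58 on day 12 of OKSM and from 9.81 to 11.77 with AGi, and were higher with AGi on 6 of 6 days (0.45 ± 0.13 over the days, adjusted p = 0.038). That call was lost without any one of days 2, 4, 6 and 8 and against the largest control difference (adjusted p = 0.593). ESCs read 10.78 and MEFs 9.16, so the level of Cd68 was higher in ESCs than in the fibroblasts.

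**Figure D3:**
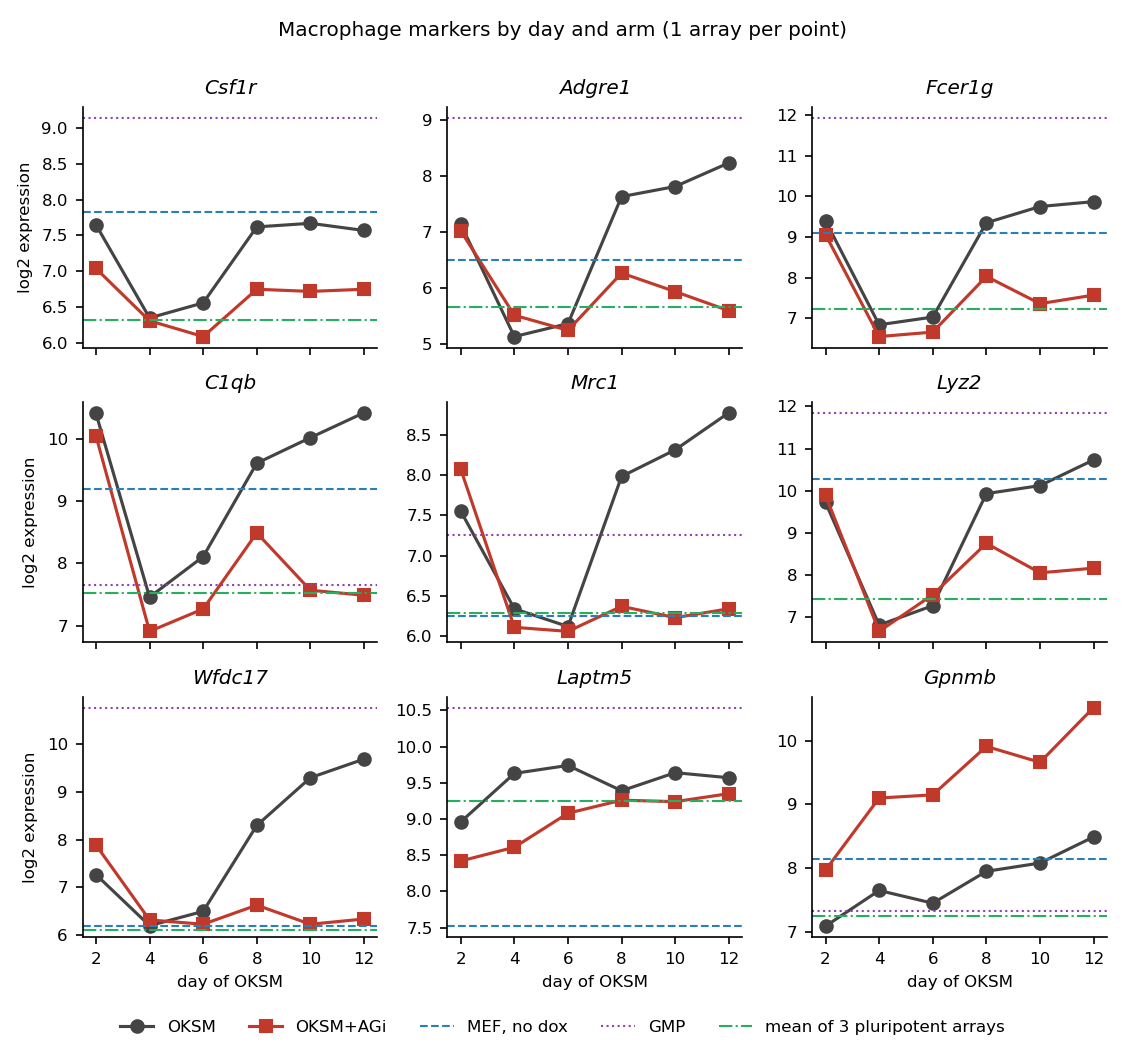
Log2 expression of 9 members (vertical axes) against day of OKSM (horizontal axes) without AGi (dark circles) and with AGi (red squares), 1 array per point, with lines at the MEF, GMP and mean pluripotent levels. For Csf1r, Adgre1, Fcer1g, C1qb, Mrc1, Lyz2 and Wfdc17 every culture with AGi on days 8 to 12 lies below every culture without it; for Gpnmb the culture with AGi is the higher on 6 of 6 days, and for Laptm5 the lower.

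Lysosomal and antimicrobial genes held both the strongest movers and the clearest exceptions. Lyz2, lysozyme M, had log2 levels of 9.72, 6.81, 7.27, 9.93, 10.12 and 10.73 in OKSM cultures and 9.89, 6.66, 7.53, 8.75, 8.05 and 8.16 with AGi. The late difference was −1.94 ± 0.23 (n = 3 days, adjusted p = 0.00114), yet the late cultures with AGi were still above day 4. Lyz2 is close in sequence to Lyz1, so its probe set may read both. Mpeg1, the pore-forming protein perforin-2, had late log2 levels of 6.95, 6.73 and 7.42 without AGi and 5.40, 5.12 and 5.41 with it (−1.72 ± 0.19, adjusted p = 0.000964). Ctss, the protease cathepsin S, had late levels of 6.84, 6.91 and 7.28 without AGi and 5.99, 6.12 and 5.85 with it (−1.02 ± 0.20, adjusted p = 0.00743). For Mpeg1 and Ctss, the late levels with AGi fell in or near the pluripotent ranges of 5.10 to 5.49 and 6.01 to 6.32.

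Gpnmb, a glycoprotein of lysosomes and melanosomes that lipid-laden macrophages and osteoclasts make, was the only member called higher with AGi late. Its log2 levels were 7.09, 7.65, 7.45, 7.95, 8.08 and 8.49 in OKSM cultures and 7.97, 9.10, 9.15, 9.91, 9.66 and 10.52 with AGi. It was higher with AGi on 6 of 6 days, by 0.87 on day 2 and 2.03 on day 12. Over the 6 days the difference was 1.60 ± 0.14 (n = 6 days, adjusted p = 0.000758) and on days 8 to 12 1.85 ± 0.16 (adjusted p = 0.000401), which also passed against the largest control difference (adjusted p = 0.000853). No culture with AGi after day 2 was as low as the MEF level of 8.15.

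Laptm5, a lysosomal membrane protein of blood cells, ran against the set from day 2 to day 6. Its log2 levels were 8.96, 9.63, 9.74, 9.39, 9.64 and 9.57 in OKSM cultures and 8.42, 8.61, 9.08, 9.26, 9.24 and 9.35 with AGi. It was lower with AGi on 6 of 6 days (−0.50 ± 0.11, n = 6 days, adjusted p = 0.0161; 0.0539 without day 6 and 0.315 against the largest control difference). MEFs read 7.52 and the pluripotent arrays 8.84 to 9.51, so that the gene was higher in pluripotent cells than in MEFs.

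The leukocyte surface proteins also differed among themselves. Cd53, a tetraspanin of blood cells, had log2 levels of 7.83, 6.05, 6.23, 7.63, 7.53 and 8.09 in OKSM cultures and 7.34, 5.84, 5.96, 6.45, 6.36 and 6.6 with AGi. Its late difference was −1.28 ± 0.10 (n = 3 days, adjusted p = 0.000304). Cd52, a small lipid-anchored surface protein, had late levels from 5.67 to 5.78 without AGi and from 5.31 to 5.38 with it (−0.38 ± 0.08, adjusted p = 0.00821, but 0.469 against the largest control difference). Cd84, a SLAM family receptor, was lower with AGi on all 3 late days and did not pass (−0.47 ± 0.18, adjusted p = 0.0876). Cd83, a marker of mature dendritic cells, lay between 6.92 and 7.33 in all 12 cultures and 7.06 in GMPs.

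Wfdc17, a small secreted protein of activated macrophages, had the largest late difference of the set. Its log2 levels were 7.27, 6.20, 6.50, 8.30, 9.30 and 9.69 in OKSM cultures and 7.89, 6.32, 6.23, 6.63, 6.23 and 6.34 with AGi. On day 12 the log2 difference with AGi was −3.35, and the cultures with AGi on days 10 and 12 were near the MEF level of 6.19. Aif1, the calcium-binding protein Iba1, was highest on day 2 (6.68 and 6.36) and showed no late rise in either arm; the levels on days 8 to 12 were 6.05 to 6.24 without AGi and 5.68 to 6.09 with it. Over the 6 days it was lower with AGi by a small amount (−0.22 ± 0.06, adjusted p = 0.0278), a size no larger than that of the most deviating control probe set, whose direction was opposite, and the call was lost on leaving out any one of days 2, 4, 8, 10 and 12.

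How far the members went together was described by the Pearson correlation of each with the mean of the other members over the 12 cultures, which share their arrays and days. It was at least 0.8 for 21 members, led by Cd53 and Fcer1g (0.99 each) and Lyz2 (0.98). At or below 0.5 were 7 members: Cd83 (0.50), Aif1 (0.38), Marco (0.32), Cd68 (0.18), Laptm5 (0.03), Fcgr2b (−0.17) and Gpnmb (−0.42). Outside the set, the 10 genes most like its mean profile over the 18 arrays were Plek (0.99), C3ar1, Cd180 and Tlr13 (0.98 each), Ms4a6d (0.97), Pld4 and Lcp1 (0.96 each), Ppp1r12c (0.95), Alox5ap and Erg (0.94 each). The likeness is a description of these arrays, in which GMPs stand far from the rest.

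The sorted Thy1-positive cells of day 3 were set beside the bulk OKSM cultures of days 2 and 4, 1 array each and by size only. They lay between the days for 26 of 30 members, against 34.6% of all genes. These shares are not alike, because the members differed more between the days. Their median difference from day 2 to day 4 over both arms was −0.94, against −0.02 over all genes. A wider gap holds a value between the days more easily, so the excess says nothing about macrophages among the sorted cells. Lyz2 had a log2 level of 8.86 in the sorted cells, 9.72 on day 2 and 6.81 on day 4. C1qb read 8.19, 10.41 and 7.46 on the same arrays, and Adgre1 6.36, 7.14 and 5.14. Against the mean of the bulk days, none of the 30 members was lower or higher by 1 log2, which 0.424% and 0.343% of all genes were. At a threshold of 0.5 log2, 7 were lower (2.28% of all genes) and 2 higher, Wfdc17 and Lyz2 (1.99% of all genes).

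Among the members outside that range, Wfdc17 (7.65) was above both bulk days, and Laptm5 (8.35), Cx3cr1 (7.18) and Fcgr2b (6.84) were below both. Compared with MEFs, 24 members were lower in the sorted cells, against 52.8% of all genes. In the sorted cells 18 members were above the highest pluripotent array (32.7% of all genes were). The same count was 23 in MEFs (38.1% of all genes), 25 in OKSM cultures on day 2 (36.4%) and 3 on day 4 (33.4%). Ptprc, which encodes the leukocyte antigen CD45, had a log2 level of 5.37 in the sorted cells. It read 6.12 in bulk OKSM cultures on day 2 and 5.30 on day 4, so the sorted cells lay between these days and near day 4. Its level was 6.01 in MEFs and 5.10 to 5.42 in the pluripotent arrays.

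**Figure D4:**
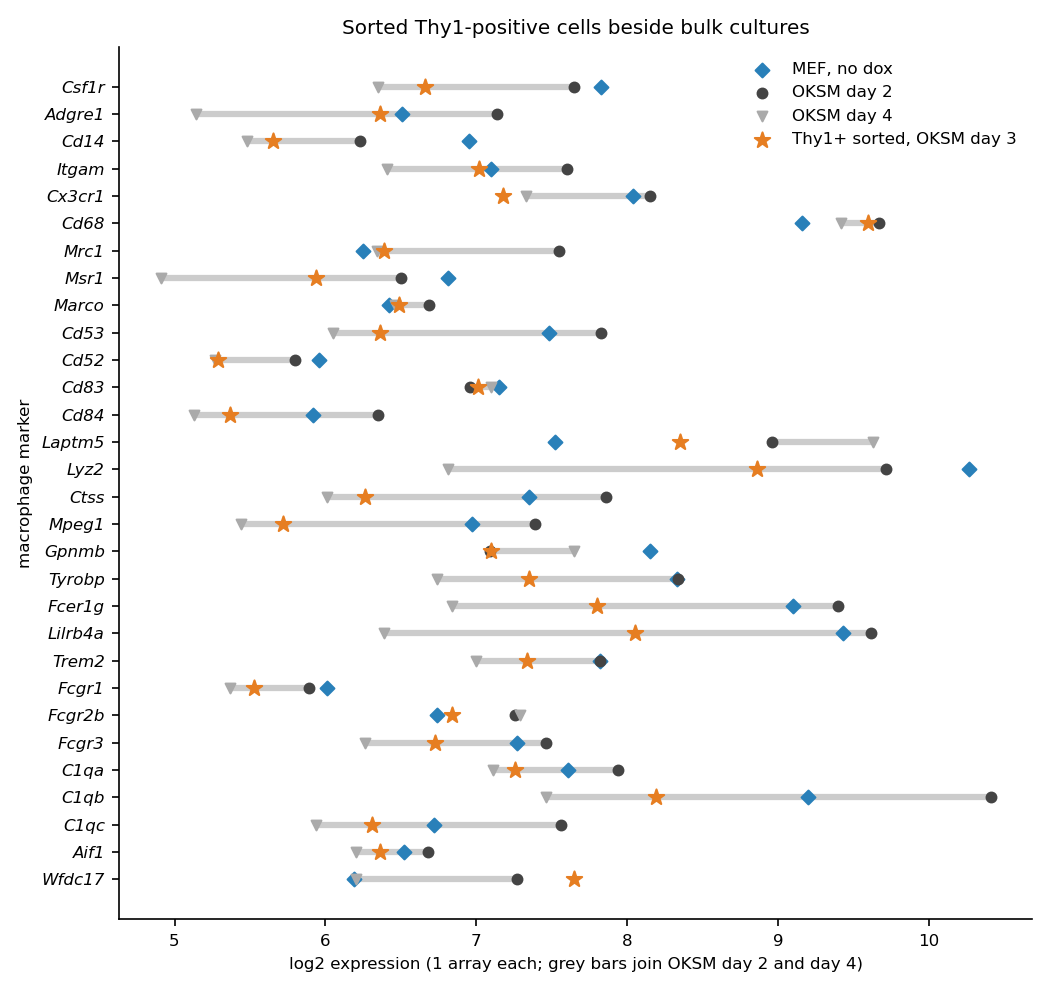
Log2 expression (horizontal axis) of the 30 members (vertical axis) in sorted Thy1-positive cells of OKSM day 3 (stars), bulk OKSM cultures of days 2 and 4 (circles and triangles, joined by grey bars) and MEFs without dox (diamonds), 1 array each. For 26 of 30 members the star lies between the bulk days.

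Markers of other cell types were read on the same arrays to show what else moved. Over all genes, 13.4% were called lower and 13.2% higher with AGi on days 8 to 12, and 0.987% lower on day 4 than on day 2. Counts for a list are to be read beside these shares. Of 20 measured pan-leukocyte genes, 14 were called lower with AGi on days 8 to 12 and 1 higher, and 6 were called lower on day 4 than on day 2. Their summed level, given as the mean log2 over the list, was 6.96 to 7.15 in late OKSM cultures, 6.54 to 6.80 with AGi and 11.11 in GMPs. Ptprc had log2 levels of 6.12, 5.30, 5.34, 5.90, 5.77 and 6.13 in OKSM cultures and 5.63, 5.31, 5.40, 5.05, 5.17 and 5.04 with AGi, against 10.62 in GMPs. Its late difference was −0.85 ± 0.13 (n = 3 days, adjusted p = 0.00353). Plek (−1.06 ± 0.16, adjusted p = 0.00279), a substrate of protein kinase C in blood cells, and Nckap1l (−0.53 ± 0.14, adjusted p = 0.0271), a regulator of actin in blood cells, were lower too. The 1 higher was Inpp5d (1.54 ± 0.27, adjusted p = 0.00514), a lipid phosphatase that read 9.89 to 10.19 in the pluripotent arrays.

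Of 14 measured genes of resident macrophages, 9 were called lower with AGi late (13.4% of all genes) and 6 lower on day 4 (0.987%). Ms4a7 had a late log2 difference of −1.86 ± 0.22 (adjusted p = 0.00118), C3ar1, the receptor for complement C3a, of −1.10 ± 0.13 (adjusted p = 0.00111), Folr2, the folate receptor beta, of −1.06 ± 0.22 (adjusted p = 0.0109) and Mertk, a receptor for dying cells, of −0.58 ± 0.12 (adjusted p = 0.0104). Ms4a7 read 8.34 on day 12 of OKSM, 6.28 with AGi and 5.60 in GMPs. This list stood at a mean log2 of 6.54 to 6.85 in late OKSM cultures, above the GMP value of 6.45, and at 5.95 to 6.17 with AGi.

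Gpnmb is known from osteoclasts and lipid-laden macrophages, and other genes of these cells were read beside it. Of 9 measured, 3 were called higher with AGi on days 8 to 12 (13.2% of all genes) and 1 lower (13.4%). Acp5, the acid phosphatase of osteoclasts, was higher by 0.99 ± 0.11 (log2, adjusted p = 0.000863), Atp6v0d2, a proton pump subunit, by 1.30 ± 0.38 (adjusted p = 0.0379) and Mmp9, a matrix protease, by 0.96 ± 0.25 (adjusted p = 0.0259). Atp6v0d2 had log2 levels of 3.99 on day 2 and 5.96 on day 12 of OKSM, and 4.20 and 8.52 with AGi. Mmp9 read 6.74 and 9.86 on the same days without AGi and 6.40 and 10.46 with it. Fabp4, also of this list, was not called late with AGi (0.19 ± 0.32, adjusted p = 0.738). The median late difference of the list was 0.19.

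Lists of progenitors and other blood cells were read next. The 14 genes of GMPs and neutrophils had a mean log2 of 6.28 to 6.83 in MEFs and all 12 cultures, and 11.24 in GMPs. Elane read 6.51 and Mpo 6.08 on day 12 of OKSM. Myb, of the same list, did not stay level. It read 6.46 in MEFs and 9.89, 10.36 and 10.29 on days 8, 10 and 12 of OKSM, against 12.61 in GMPs and 9.73 in ESCs. Its late minus early difference in OKSM cultures was 2.61 ± 0.48 (limma, adjusted p = 0.00856). Only Kit (higher with AGi, 1.72 ± 0.29, adjusted p = 0.00418) and 1 further gene of this list were called on days 8 to 12. Kit reached 10.65 with AGi on day 12, against 11.01 in GMPs and 10.53 in ESCs. Of 13 monocyte and inflammatory genes none was called in that comparison, and the mean log2 was 5.46 to 5.60 in the cultures and 8.40 in GMPs; Ly6c2, a monocyte surface antigen, read 13.11 in GMPs and 8.34 on day 12 of OKSM. None of 7 mast cell genes was called, with means of 4.40 to 4.54 in the cultures and 7.49 in GMPs. Of 11 lymphoid genes 1 was called in each direction, and their mean was 5.15 to 5.52 in the cultures and 5.74 in GMPs.

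Fibroblast genes, from the cells that made up the starting cultures, changed on the same days. Of 12 fibroblast genes, 8 were called lower with AGi on days 8 to 12 (13.4% of all genes). On day 4, 4 were called lower than on day 2 (0.987% of all genes). Late in OKSM cultures, 7 were called higher than on days 4 and 6 (5.26% of all genes). The mean log2 of this list was 9.10 to 9.17 on days 4 and 6 of OKSM and 10.35 to 10.46 on days 8 to 12, and 9.46 to 9.76 on those late days with AGi. Col3a1, a fibrillar collagen, had a late log2 difference with AGi of −1.11 ± 0.14 (adjusted p = 0.00156). For Pdgfrb, a receptor for platelet-derived growth factor, it was −1.35 ± 0.12 (adjusted p = 0.000444). Lum (−0.12 ± 0.25, adjusted p = 0.783), Pdgfra (−0.03 ± 0.28, adjusted p = 0.958) and Thy1 (−0.78 ± 0.26, adjusted p = 0.0624) were not called. With AGi, 7 of the 12 were also called higher late against days 4 and 6, where 2 of 30 members and 3.1% of all genes were. The part of the fibroblast genes and of the other lists in the members' changes was not tested. Of 12 endothelial genes 4 were called lower (13.4% of all genes) and 1 higher (13.2%) with AGi late, and the list median was −0.05. Cdh5, the cadherin of vessels, had a log2 level of 7.97 on day 12 of OKSM and 5.83 with AGi (late difference −1.40 ± 0.23, adjusted p = 0.00418). Erg was lower too (−1.29 ± 0.14, adjusted p = 0.000963). Pecam1 was the 1 called higher (1.55 ± 0.29, adjusted p = 0.00677), and it read 9.38 to 9.76 in the pluripotent arrays. Emcn was not called (0.06 ± 0.09, adjusted p = 0.723). Among 4 erythroid and megakaryocyte genes only Ppbp, a platelet chemokine, was called late with AGi (−3.24 ± 0.38, adjusted p = 0.0011). It read 11.86 in MEFs and 11.56 in the sorted Thy1-positive cells, above the 10.67 of GMPs, so here its level does not mark blood cells.

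**Figure D5:**
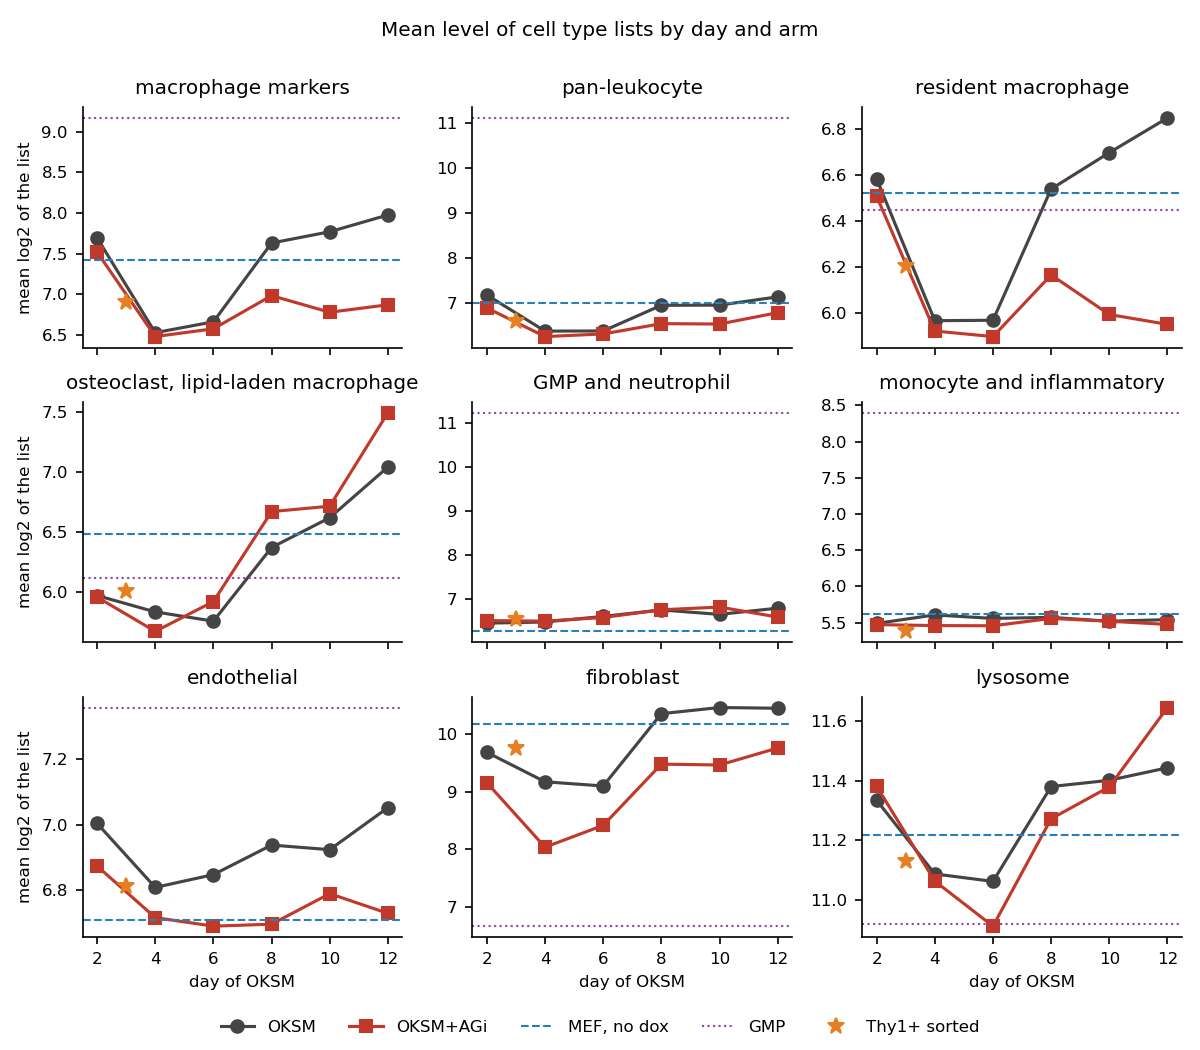
Mean log2 expression of 9 gene lists (vertical axes) against day of OKSM (horizontal axes) without AGi (dark circles) and with AGi (red squares), 1 array per point, with lines at the MEF and GMP values and a star for the sorted Thy1-positive cells. The pan-leukocyte and resident macrophage lists follow the macrophage markers, the fibroblast list shares their low on days 4 and 6, and the lists of GMPs and neutrophils and of monocytes stay far below their GMP level.

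The regulators and ligands of the lineage were read last, again beside 13.4% of all genes called lower and 13.2% called higher late with AGi. Spi1, which encodes PU.1, had log2 levels of 7.51, 7.12, 7.08, 7.65, 7.46 and 7.76 in OKSM cultures and 7.36, 7.01, 7.08, 6.94, 7.02 and 6.95 with AGi. On days 8 to 12 every level with AGi was below every level without it, and in the pluripotent range of 6.96 to 7.30 or just under it (−0.65 ± 0.09, n = 3 days, adjusted p = 0.00217). GMPs read 10.98. Of 11 measured transcription factor genes 5 were called lower late with AGi and none higher, among them Maf (−1.38 ± 0.09, adjusted p = 0.000177), Fli1 (−0.96 ± 0.11, adjusted p = 0.00119) and Cebpa (−0.80 ± 0.11, adjusted p = 0.00203). Maf, a factor of resident macrophages and of other cells, reached 8.57 on day 12 of OKSM against 6.21 in GMPs.

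Among 9 colony-stimulating factor genes only Csf1, the ligand of Csf1r, was called lower with AGi on days 8 to 12 (−1.05 ± 0.15, adjusted p = 0.00211). Csf1 had log2 levels of 10.92, 10.90 and 10.96 on days 8, 10 and 12 of OKSM, 9.85, 9.70 and 10.06 with AGi and 11.71 in MEFs. On days 2, 4 and 6 the levels were 10.25, 10.75 and 10.43 without AGi, so Csf1 did not share the low of the members on days 4 and 6. Il34, the other ligand, rose late in both arms (0.94 ± 0.15 without AGi, adjusted p = 0.00427, and 1.11 ± 0.15 with it, adjusted p = 0.00398) and reached 8.88 and 8.86 on day 12.

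Of 14 lysosome genes none was called in the late AGi comparison, and the list mean was 11.38 to 11.44 in late OKSM cultures and 11.27 to 11.65 with AGi. Hexa, a lysosomal hexosaminidase, was lower on day 4 than on day 2 (−1.0 ± 0.12, adjusted p = 0.0288). Of 9 genes of adaptor signalling, 3 were lower (13.4% of all genes) and 2 higher (13.2%) late with AGi. Vav1 (−0.64 ± 0.11, adjusted p = 0.00555), a guanine nucleotide exchange factor, Pik3cg (−0.45 ± 0.09, adjusted p = 0.00877) and Pik3ap1 (−0.53 ± 0.10, adjusted p = 0.00772), which act on the phosphoinositide pathway, were the lower ones. Plcg2, a phospholipase, was higher (1.16 ± 0.26, adjusted p = 0.013), and it read 8.07 to 9.13 in the pluripotent arrays and 7.45 in MEFs. Of 10 measured antigen presentation genes, 2 were higher and none lower with AGi late, where 13.2% and 13.4% of all genes were.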

How the data were processed

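The 18 samples were run on whole-transcript mouse gene arrays from Affymetrix. The deposited values are log2 expression for each probe set, after RMA in Expression Console, per the submitters' processing notes. RMA settings, scan dates and the build were not given in the sources used here. Of 41345 probe sets, 190 were controls, 23521 had 1 symbol, 1814 several and 15820 none. Where several probe sets stood for one of the 22180 genes, the brightest on average was kept. No filter on low values was applied. Of the members, 25 reached the array median on at least 3 of the 12 culture arrays.

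Tests used limma 3.58.1 in R 4.3.3 over all genes (lmFit and eBayes; calls at 0.05 after Benjamini-Hochberg adjustment). The AGi fits held the day as a block (5 residual degrees of freedom over 6 days, 4 with separate early and late effects), the late against early fit had 8, and day 4 against day 2 had 2. The separate early and late AGi effects were added after seeing the data. Single arrays were compared by size. Precision is limited by 1 array per condition. The fits were tested on simulated data. The members, lists, motifs and alternatives were chosen with earlier results of these data known. Named genes are all members, up to 4 genes per list by the size of the late against early change in OKSM cultures, Ptprc, Spi1, Mpo, Elane and Thy1, and the 10 genes most correlated with the members' mean. Promoters came from the RefSeq table of GRCm38.p6. Plots came from matplotlib 3.10.9 under Python 3.11.15.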

Additional observations from a re-analysis of the deposited data

Results flagged for a closer look

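The effect of AGi differed between early and late days for 8 members, by the test of that difference itself (limma, days 8 to 12 against days 2 to 6, n = 3 days each). It was more negative late by −2.85 for Wfdc17 (adjusted p = 0.0335), −2.12 for Mrc1 (adjusted p = 0.0229), −2.03 for Lyz2 (adjusted p = 0.0386), −2.0 for Adgre1 (adjusted p = 0.0356), −1.67 for Fcer1g (adjusted p = 0.0386), −1.26 for C1qc (adjusted p = 0.0256), −1.11 for Msr1 (adjusted p = 0.0335) and −0.95 for Cd53 (adjusted p = 0.0321), all on the log2 scale. All 8 were lower with AGi on each of days 8, 10 and 12. None of these calls held without day 2, without day 4 or without day 10, and against the largest control difference 6 held, with Fcer1g (adjusted p = 0.0523) and Lyz2 (adjusted p = 0.0506) lost.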

How the results depend on the processing

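On days 8 to 12, 18 to 22 members were called lower with AGi under every alternative run. Other counts moved, those for AGi being of members called lower. Against the largest control difference they were 0 for AGi over 6 days and on days 2 to 6 (Gpnmb was called higher in both), 1 and 0 for the late rise without and with AGi, and 8 for day 4 against day 2. With no day term AGi over 6 days gave 0 lower (11 members at an unadjusted p under 0.05, limma), and Gpnmb was called higher (adjusted p = 0.0107). The late rise in OKSM cultures was 1 after quantile normalization and 20 against days 4 and 6, and with AGi 2 against days 4 and 6. With all 12 arrays day 4 against day 2 gave 0. Leaving out 1 day gave 4 to 15 members for AGi over 6 days, 0 to 20 and 0 to 2 for the late rise without and with AGi, 0 to 11 for the late minus early AGi effect, 0 to 1 on days 2 to 6 and 20 to 22 on days 8 to 12. At 0.5 log2 the sorted cells were lower for 7 members and MEFs higher for 22. Of 699 alternatives for single called members, 535 kept the call, 164 lost it and none changed direction. The AGi fits pair the arms by day, with the day as the block. Array number, not depth, limits precision, and members near 5 or 6 log2 on every culture, such as Fcgr1 and Cd52, have little room to fall.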
